A study of Mus musculus with 34 samples.

Results

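The 31 genes described here encode the semaphorins and their main receptors: 20 semaphorins, 9 plexins and 2 neuropilins. They were taken by gene symbol, with no cut on level or change, from the 48795 genes of the deposited count table. Earlier results of these data were known when they were chosen. All 31 were in the table, and all 31 passed the filter on low counts that left 19565 genes to test. The lowest total of any member over the libraries of 1 group was 159 counts, for Sema3a among cKO injured libraries.

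Semaphorins are secreted or membrane-bound guidance proteins, best known for making growth cones collapse or turn away. They act through plexins, whose intracellular domain switches off small GTPases of the Ras and Rap families and so reshapes the cytoskeleton. Most class 3 semaphorins, the secreted ones, cannot bind plexins directly and use a neuropilin as the binding partner. In dorsal root ganglia, where sensory neurons have their cell bodies, these proteins sort axons during development, and the same neurons regrow axons after a nerve injury.

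RNA was measured in 17 mice, 8 to 12 weeks old, 3 days after a crush of the left sciatic nerve. The material was ganglion cells enriched for neurons (20% Percoll), not whole ganglia. Each mouse gave 1 library from the lumbar ganglia of the crushed side, called injured, and 1 from those of the uncrushed side, called naive. The 8 ATF3-cKO mice (5 female, 3 male) carried Adv-Cre, the recombinase Cre under control of Avil (advillin), a gene of sensory neurons, and floxed Atf3 on both chromosomes (Adv-Cre+, ATF3-fl_homo). They gave 8 cKO injured and 8 cKO naive libraries. The 9 ATF3-wt mice had functional Atf3 and gave 9 wt injured and 9 wt naive libraries: 6 were females without Cre, 4 with 1 floxed allele (fl_het) and 2 with none, and 3 were males with Cre and wild-type Atf3. Among controls, sex and Cre thus cannot be told apart. Among females, all 5 cKO mice were labelled with Cre and all 6 controls without it, so by the labels Cre and loss of Atf3 cannot be told apart there. Males of both genotypes carried Cre. ATF3 is a bZIP transcription factor induced in sensory neurons by axon damage.

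Library totals ran from 35732193 to 77632944 counts, with a median of 55603953. Levels are given as CPM, read counts relative to the scaled library total, and levels of members are compared with each other only as CPM per kb of exon. The 12 markers of sensory neurons summed to between 10172 and 19356 CPM in every library. Sums of the 8 to 10 markers of any other cell type listed were lower, the next being satellite glia with 611 to 2183 CPM. These sums hold different numbers of genes and are not scaled by length, so they do not give the share of each cell type. In such bulk samples fewer cells of a type and less RNA per cell cannot be told apart. Whole-gene Atf3 was counted at 179, 254 and 361 CPM (lowest, median and highest) in cKO injured, 70.1, 123 and 150.2 CPM in cKO naive, 169, 335 and 652 CPM in wt injured and 75.5, 123 and 184 CPM in wt naive libraries, which does not check the deletion of an exon. Avil ran from 432 to 555 CPM in 20 libraries labelled Cre-positive and from 792 to 1036 CPM in 10 labelled Cre-negative. Both libraries of mouse cKO-131, at 83.4 and 88.8 CPM, and both of the Cre-negative mouse wt-150, at 499 and 517 CPM, stood apart from their label's range. Leaving out either mouse ended none of the members' calls made below without pairing the sides of a mouse. Other calls are not covered by this.

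In wt naive libraries plexins took the top 2 ranks of the 31 members. Plxnc1, the receptor of Sema7a, had the highest level per length, at 55.1 ± 6.46 CPM per kb (SD, n = 9), and Plxnd1, the receptor of Sema3e, followed at 39.6 ± 3.405 CPM per kb. The most abundant semaphorins per length were the membrane-bound Sema4f, at 28.3 ± 3.29 CPM per kb, and the GPI-anchored Sema7a, at 23.3 ± 2.72 CPM per kb. Plxna4 (21.8 ± 1.19 CPM per kb) and Plxna2 (19.8 ± 1.28 CPM per kb) came next, and from Sema4f to Plxna2 each member overlapped its neighbour within 1 SD. Sema3a, a collapsing factor for nociceptor axons, was the lowest member, at 0.0362 ± 0.0137 CPM per kb. Sema6a, at 2.82 ± 0.271 CPM per kb, lay low among the 31 on the naive side, while on the injured side it averaged 10.5 ± 2.57 CPM per kb in cKO and 35.3 ± 20.6 CPM per kb in wt libraries.

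**Figure D1:**
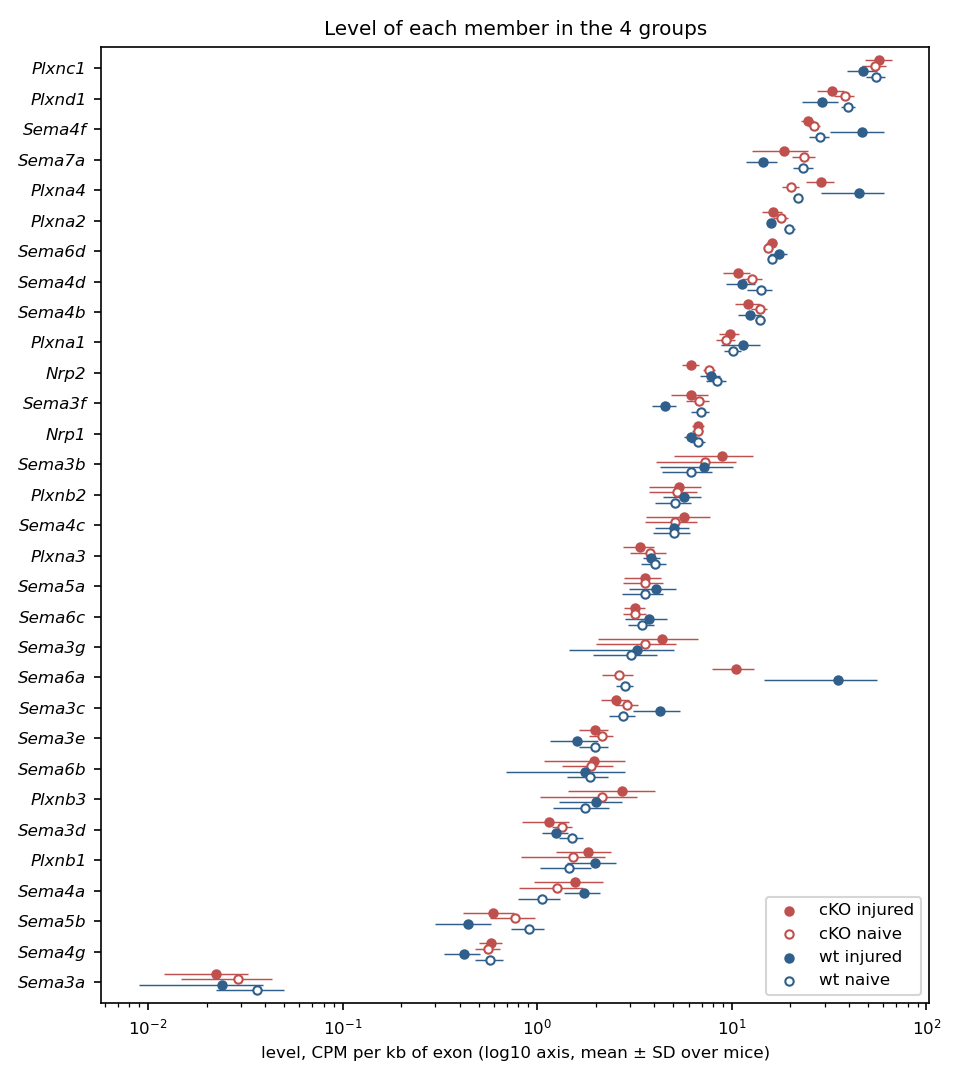
Level of each of the 31 members as CPM per kb of exon on a log10 axis (points are means, bars are SD, n = 8 for cKO and 9 for wt groups), ordered by the wt naive level. Plxnc1 is at the top with 55.1 CPM per kb and Sema3a at the bottom with 0.0362 CPM per kb. Sema6a is the member whose filled wt injured point lies farthest from its open wt naive point.

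The crush was first compared with the naive side in mice with intact ATF3, to see which members answer to axon injury. Of the 31 members 6 were higher on the wt injured side and 7 were lower in edgeR's quasi-likelihood test with Benjamini-Hochberg adjustment over all genes, where 14.3% of the 19565 genes tested were higher and 12.7% lower. The 31 members had a median log2 fold change of -0.05, beside 0.02 over all genes. The rises were Sema6a, Plxna4, Sema4a, Sema4f, Sema3c and Sema6d, and the falls Sema5b, Sema7a, Sema3f, Plxnd1, Sema4g, Sema4d and Plxna2. Semaphorins made up 5 of the rises and 5 of the falls. With the mouse as a block, which pairs the sides of each animal, 7 were higher and 12 lower, beside 20.8% and 20.1% of all genes. Without ATF3 in sensory neurons, 2 members were higher on the cKO injured side, Sema6a and Plxna4, and 1 was lower, Nrp2, where 2.61% of all genes were higher and 0.583% lower. The block made this 2 higher and 4 lower, beside 4.77% and 3.62% of all genes.

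**Figure D2:**
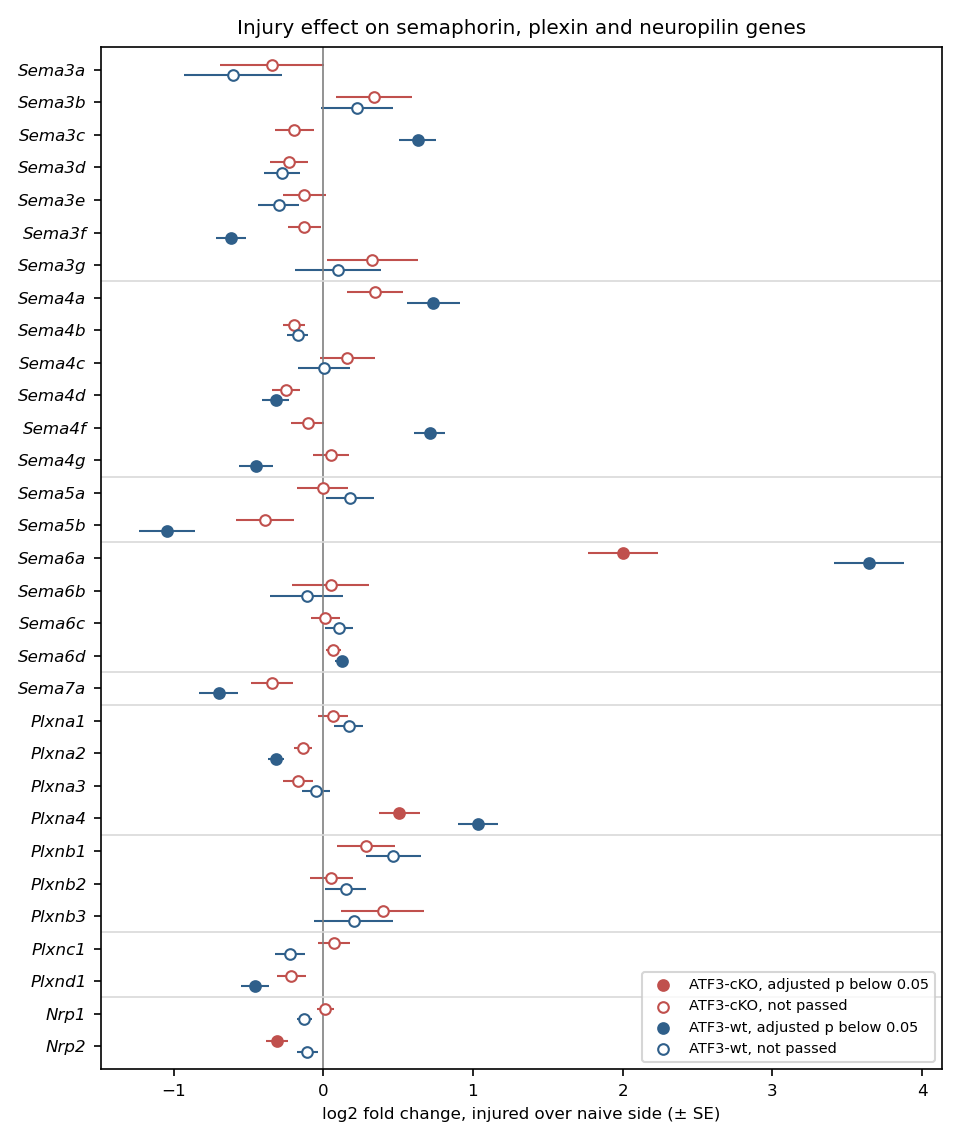
log2 fold change of the injured over the naive side for each member, with its SE, in ATF3-cKO (red) and ATF3-wt (blue) mice. Filled points passed an adjusted p of 0.05. Sema6a lies farthest to the right in both genotypes, at 2.00 in cKO and 3.64 in wt mice.

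Sema6a encodes a membrane-bound semaphorin that binds the plexins A2 and A4, and it can also act as a receptor in the cell that carries it (chromosome 18, 47235598 to 47368870, minus strand, ENSMUSG00000019647, GRCm38 as all coordinates here). It was counted at 71.0, 81.5 and 127 CPM (lowest, median and highest) in cKO injured, 17.4, 22.5 and 29.0 CPM in cKO naive, 149, 223 and 683 CPM in wt injured and 21.4, 25.6 and 28.7 CPM in wt naive libraries. Injured and naive libraries did not overlap in either genotype, and every cKO injured library lay below every wt injured one. The highest wt injured value was that of mouse wt-176 and the next, 519 CPM, that of wt-172. On the log2 scale Sema6a rose by 2.00 (SE 0.23, adjusted p = 4.02e-07) with injury in cKO and by 3.64 (SE 0.23, adjusted p = 2.73e-13) in wt mice. The injury effect was smaller in cKO by 1.64 (SE 0.31, adjusted p = 0.00168). It was present in 8 of 8 cKO and 9 of 9 wt mice, from 1.38 to 2.87 in single cKO mice and from 2.52 to 4.73 in single wt mice.

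Plxna4, a plexin that serves as receptor of Sema6a and, with neuropilin-1, of Sema3a (chromosome 6, 32144268 to 32588192, minus strand), moved the same way. It was counted at 309, 393 and 506 CPM in cKO injured, 237, 292 and 319 CPM in cKO naive, 420, 527 and 1039 CPM in wt injured and 280, 305 and 334 CPM in wt naive libraries. The wt injured and wt naive libraries did not overlap, while cKO injured and cKO naive did. The log2 fold change with injury was 0.51 (SE 0.14, adjusted p = 0.0356) in cKO and 1.04 (SE 0.13, adjusted p = 3.87e-07) in wt mice, and the injured side of cKO was lower than that of wt by 0.65 (log2 fold change -0.65, SE 0.14, adjusted p = 0.00129). The cKO call ended when any 1 of the 7 cKO mice other than cKO-131 was left out, with an adjusted p of up to 0.169. It also ended within each sex and within the mice with a low or a high ribosomal spacer share. Plxna4 was higher on the injured side in 8 of 8 cKO and 9 of 9 wt mice, and the difference between these effects, -0.53 (SE 0.19, adjusted p = 0.162), did not pass.

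Sema4f and Sema3c rose with injury in wt mice and not in cKO mice. Sema4f, a membrane-bound class 4 semaphorin (chromosome 6, 82911885 to 82939769, minus strand), was counted at 119, 129 and 148 CPM in cKO injured, 129, 140 and 154.9 CPM in cKO naive, 190, 221 and 438 CPM in wt injured and 125, 144 and 180 CPM in wt naive libraries. The wt injured libraries lay above all the others, with wt-176 at 438 CPM and the next, wt-139, at 255 CPM. The log2 fold change with injury was -0.11 (SE 0.11, adjusted p = 0.795) in cKO and 0.71 (SE 0.10, adjusted p = 3.83e-06) in wt mice. The injured side of cKO differed from that of wt by -0.91 (SE 0.11, adjusted p = 4.06e-07), and the 2 injury effects differed by -0.82 (SE 0.15, adjusted p = 0.00142). Sema4f was lower on the injured side in 8 of 8 cKO mice, by little (-0.14 to -0.03 on the log2 scale), and higher in 9 of 9 wt mice (0.30 to 1.61).

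Sema3c, a secreted semaphorin that signals through neuropilins with plexin D1 or A plexins (chromosome 5, 17574281 to 17730268, plus strand), was counted at 14.6, 17.5 and 22.8 CPM in cKO injured, 17.3, 20.4 and 24.9 CPM in cKO naive, 22.0, 26.7 and 44.7 CPM in wt injured and 15.6, 19.1 and 25.1 CPM in wt naive libraries. Injured libraries of the genotypes overlapped only at cKO-131 (22.8 CPM) and wt-195 and wt-146 (22.0 and 22.2 CPM), and the wt injured range overlapped the wt naive one, whose highest libraries were wt-175 and wt-176 (25.1 and 23.0 CPM). Its log2 fold change with injury was -0.19 (SE 0.13, adjusted p = 0.585) in cKO and 0.63 (SE 0.12, adjusted p = 0.000187) in wt mice. On the injured side cKO differed from wt by -0.75 (SE 0.13, adjusted p = 9.33e-05), and the injury effects differed by -0.82 (SE 0.18, adjusted p = 0.0066). Within animals the sign split by genotype: Sema3c was lower on the injured side in 8 of 8 cKO mice and higher in 9 of 9 wt mice.

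**Figure D3:**
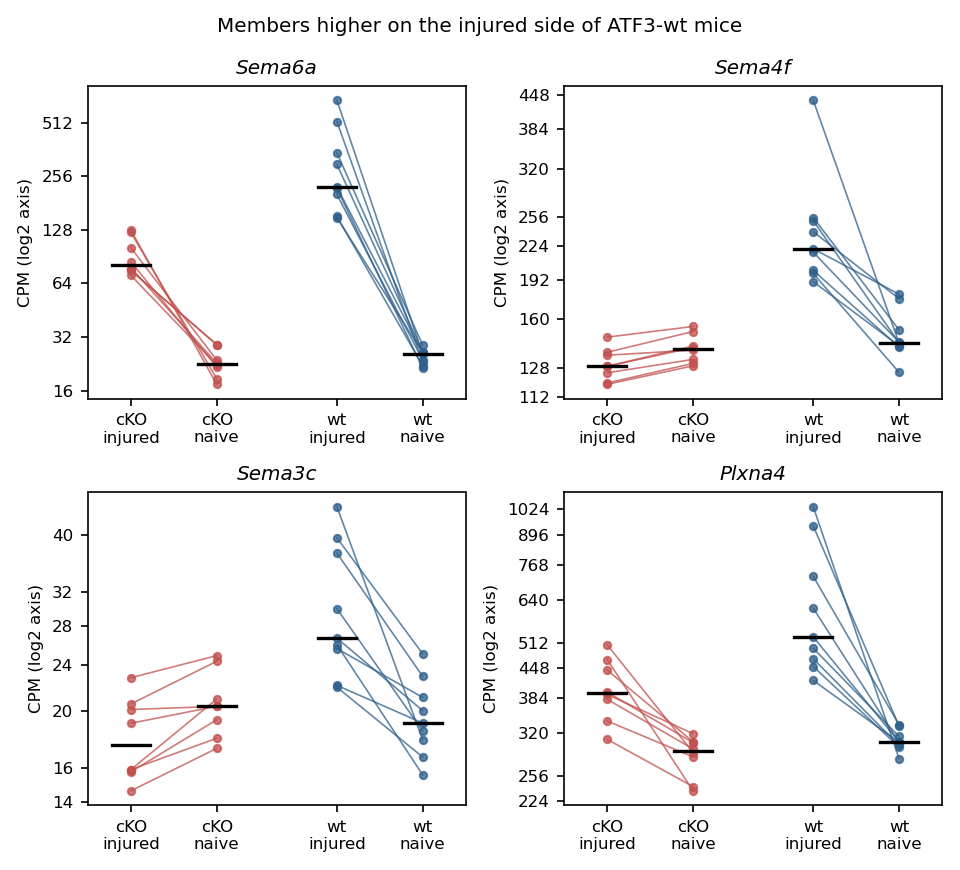
CPM on log2 axes of Sema6a, Sema4f, Sema3c and Plxna4 in the 34 libraries. Each line joins the injured and the naive library of 1 mouse (cKO red, wt blue), and black bars are group medians. Lines of Sema4f and Sema3c slope up from injured to naive in all 8 cKO mice and down in all 9 wt mice.

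Sema4a and Sema6d also rose in wt mice. Sema4a, a class 4 semaphorin also found on immune cells, was counted at 5.00, 7.54 and 13.6 CPM in cKO injured, 3.92, 6.29 and 12.0 CPM in cKO naive, 7.16, 9.13 and 13.7 CPM in wt injured and 3.03, 5.65 and 7.90 CPM in wt naive libraries. Its injury effect was 0.35 (SE 0.19, adjusted p = 0.44) in cKO mice, with 6 of 8 higher, and 0.73 (SE 0.18, adjusted p = 0.00199) in wt mice, with 9 of 9 higher. Sema6d, a plexin A1 ligand, was counted at 155.7, 169 and 190.3 CPM in cKO injured, 153, 163.2 and 169 CPM in cKO naive, 163.3, 181 and 226 CPM in wt injured and 163.3, 170 and 175.6 CPM in wt naive libraries, and its change on the log2 scale was 0.12 (adjusted p = 0.0453, SE 0.05). Leaving out any of 11 mice ended that call (wt-139, cKO-130, wt-155, cKO-152, wt-172, cKO-156, wt-175, cKO-192, wt-176, cKO-193 or wt-195), with an adjusted p of up to 0.186. It also ended with median-ratio size factors, in DESeq2 (adjusted p = 0.0567), without the filter on low counts, within each sex and within the mice with a low or a high ribosomal spacer share, with an adjusted p of up to 0.435.

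Macrophage markers moved with the same comparison: 8 of 10 were higher on the wt injured side, beside 14.3% of all genes. In cKO mice 0 of these markers passed, beside 2.61% of all genes higher and 0.583% lower. On the injured side 5 were lower in cKO than in wt, beside 7.55% of all genes. Their summed level ran from 28.6 to 151 CPM in cKO injured, 21.5 to 83.8 CPM in cKO naive, 32.6 to 118 CPM in wt injured and 6.17 to 54.1 CPM in wt naive libraries, and none of these markers was at 0 in a group. Median sums were 49.3, 43.2, 60.4 and 26.5 CPM in cKO injured, cKO naive, wt injured and wt naive libraries. Other lists also differed, with overlapping ranges. In the same order, medians were 134, 133, 68.6 and 41.0 CPM for neutrophils and 1340, 1228, 1269 and 1070 CPM for satellite glia. Endothelial medians, at 128, 126, 94.8 and 112 CPM, were lower on the wt injured than the wt naive side. The part of these cell types in the member results was not tested. Mouse wt-176, the highest wt injured library for Sema6a, Plxna4, Sema4f and Sema4a, was also the shallowest library (35732193 counts) and the one with the highest share of ribosomal RNA spacer counts, at 11.3%. Without it the wt injury effects of Sema6a, Plxna4, Sema4f and Sema4a still passed.

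Among secreted ligands, Sema3f fell with injury in wt mice. Sema3f, which repels axons through neuropilin-2 and plexin A3 (chromosome 9, 107681500 to 107710475, minus strand), was counted at 24.5, 30.5 and 41.6 CPM in cKO injured, 27.0, 35.6 and 40.5 CPM in cKO naive, 16.6, 23.9 and 27.0 CPM in wt injured and 31.0, 35.4 and 41.4 CPM in wt naive libraries. Every wt injured library lay below every wt naive one, whereas cKO injured and cKO naive libraries covered much the same range. On the log2 scale the injury effect was -0.13 (SE 0.11, adjusted p = 0.715) in cKO and -0.62 (SE 0.10, adjusted p = 2.72e-05) in wt mice, and on the injured side cKO was higher than wt by 0.46 (SE 0.11, adjusted p = 0.00311). Within the 4 sets of mice by sex or by ribosomal spacer share, that injured-side call passed in 1. The difference of the injury effects, 0.49 (SE 0.15, adjusted p = 0.0707), passed only when animals were blocked (0.48, SE 0.11, adjusted p = 0.0159), in DESeq2, with the ribosomal spacer share as a covariate and when wt-141 or cKO-156 was left out. Sema3f was lower on the injured side in 6 of 8 cKO and 9 of 9 wt mice.

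The membrane-bound Sema5b, which inhibits neurite growth in the retina (chromosome 16, 35541145 to 35664732, plus strand), had the lowest wt fold change of the 13 members that passed there. It was counted at 2.43, 4.05 and 6.15 CPM in cKO injured, 2.73, 6.05 and 7.05 CPM in cKO naive, 1.41, 2.89 and 4.76 CPM in wt injured and 4.75, 5.89 and 8.43 CPM in wt naive libraries. Only the wt groups were close to separate, with wt-155 (4.76 CPM, injured) just above wt-176 (4.75 CPM, naive). Its injury effect was -0.39 (SE 0.19, adjusted p = 0.389) in cKO and -1.04 (SE 0.18, adjusted p = 5.99e-05) in wt mice. It was lower on the injured side in 8 of 8 cKO and 9 of 9 wt mice, and the difference of these effects was 0.66 (SE 0.27, adjusted p = 0.233), and the blocked value 0.68 (SE 0.20, adjusted p = 0.0417) passed.

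Sema7a, whose protein binds plexin C1 and beta-1 integrin and can promote axon growth (chromosome 9, 57940112 to 57962865, plus strand), was counted at 43.7, 51.4 and 90.01 CPM in cKO injured, 65.7, 77.0 and 95.5 CPM in cKO naive, 37.0, 44.9 and 62.8 CPM in wt injured and 61.9, 76.3 and 88.3 CPM in wt naive libraries. The wt groups overlapped only between wt-176 (62.8 CPM, injured) and wt-141 (61.9 CPM, naive), while 3 cKO injured libraries, at 75.0, 88.2 and 90.01 CPM, lay within the cKO naive range. The injury effect was -0.34 (SE 0.14, adjusted p = 0.237) in cKO and -0.70 (SE 0.13, adjusted p = 0.000136) in wt mice, and when animals were blocked it also fell in cKO (-0.39, SE 0.11, adjusted p = 0.0424). Its receptor Plxnc1 was counted at 391, 492.7 and 558 CPM in cKO injured, 375, 441 and 551 CPM in cKO naive, 253, 401 and 484 CPM in wt injured and 368, 470 and 524 CPM in wt naive libraries. Plxnc1 passed with the block, as a fall in wt mice of -0.23 (SE 0.07, adjusted p = 0.017), and with the ribosomal spacer share as a covariate (-0.20, SE 0.08, adjusted p = 0.0482).

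Sema4g and Sema4d completed the falling ligands. Sema4g was counted at 4.15, 4.94 and 6.28 CPM in cKO injured, 3.60, 5.04 and 5.75 CPM in cKO naive, 2.95, 3.396 and 4.96 CPM in wt injured and 4.17, 4.47 and 6.65 CPM in wt naive libraries. Its injury effect was 0.05 (SE 0.12, adjusted p = 0.932) in cKO mice and -0.45 (SE 0.11, adjusted p = 0.00309) in wt mice, and on the injured side cKO was higher than wt by 0.47 (SE 0.12, adjusted p = 0.00622). That injured-side call ended within each sex and each set of mice by ribosomal spacer share (adjusted p from 0.0502 to 0.523). The effects differed by 0.50 (SE 0.16, adjusted p = 0.105), which passed with the block (0.51, SE 0.14, adjusted p = 0.0355), with the ribosomal spacer share as a covariate and without wt-141. Sema4d, the plexin B1 ligand also known as CD100, was counted at 69.1, 82.1 and 110 CPM in cKO injured, 83.8, 97.2 and 118 CPM in cKO naive, 63.8, 90.6 and 104 CPM in wt injured and 87.1, 109 and 142 CPM in wt naive libraries. All groups overlapped, yet it was lower on the injured side in 8 of 8 cKO and 9 of 9 wt mice. Its injury effect was -0.25 (SE 0.10, adjusted p = 0.205, or 0.00697 with the block) in cKO and -0.32 (SE 0.09, adjusted p = 0.00866) in wt mice.

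The receptors Plxnd1 and Plxna2 fell in wt mice. Plxnd1, which Sema3e binds without a neuropilin (chromosome 6, 115954811 to 115995005, minus strand), was counted at 186, 234 and 312 CPM in cKO injured, 247, 266 and 338 CPM in cKO naive, 145, 211 and 290 CPM in wt injured and 261, 280 and 321 CPM in wt naive libraries. Only wt-141 (290 CPM) among the wt injured libraries reached the wt naive range. The change was -0.21 (SE 0.10, adjusted p = 0.328) in cKO and -0.45 (SE 0.09, adjusted p = 0.00035) in wt mice, lower in 8 of 8 cKO and 9 of 9 wt mice. Plxna2, a Sema6a receptor (chromosome 1, 194618218 to 194816869, plus strand), was counted at 227, 283 and 321 CPM in cKO injured, 274, 305 and 346 CPM in cKO naive, 261, 268 and 295 CPM in wt injured and 307, 336 and 384 CPM in wt naive libraries. The wt groups did not overlap and the cKO groups did. The injury effect on Plxna2 was -0.14 (SE 0.06, adjusted p = 0.268) in cKO and -0.32 (SE 0.05, adjusted p = 4.01e-05) in wt mice, so that of the Sema6a receptors Plxna4 was higher and Plxna2 lower on the wt injured side.

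Nrp2, the neuropilin that Sema3f and Sema3c bind (chromosome 1, 62703285 to 62818695, plus strand), was the 1 member that fell in cKO mice without the block. It was counted at 60.6, 73.4 and 84.0 CPM in cKO injured, 83.5, 90.5 and 103 CPM in cKO naive, 77.1, 91.3 and 116 CPM in wt injured and 87.2, 98.2 and 125 CPM in wt naive libraries. Only cKO-192 (84.0 CPM) among the cKO injured libraries reached the cKO naive range, whose lowest was cKO-130 (83.5 CPM). The change was -0.31 (SE 0.07, adjusted p = 0.013) in cKO, lower in 8 of 8 mice, and -0.11 (SE 0.07, adjusted p = 0.286) in wt mice, lower in 6 of 9. The cKO call ended within each sex and within each set of mice by ribosomal spacer share (adjusted p from 0.0961 to 0.462), with its sign kept. On the injured side cKO was lower than wt by 0.33 (log2 fold change -0.33, SE 0.07, adjusted p = 0.00192), while the difference of the injury effects, -0.20 (SE 0.10, adjusted p = 0.408), did not pass. The injured-side call passed in 1 of these 4 sets of mice. Nrp1, the Sema3a receptor, was counted at 60.4, 65.4 and 71.6 CPM in cKO injured, 59.8, 66.1 and 70.7 CPM in cKO naive, 55.4, 59.9 and 70.8 CPM in wt injured and 56.0, 65.1 and 72.9 CPM in wt naive libraries. All its groups overlapped, and its wt injury effect of -0.13 (SE 0.05, adjusted p = 0.0792) passed only with the block and in a few other settings, with 9 of 9 wt mice lower.

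**Figure D4:**
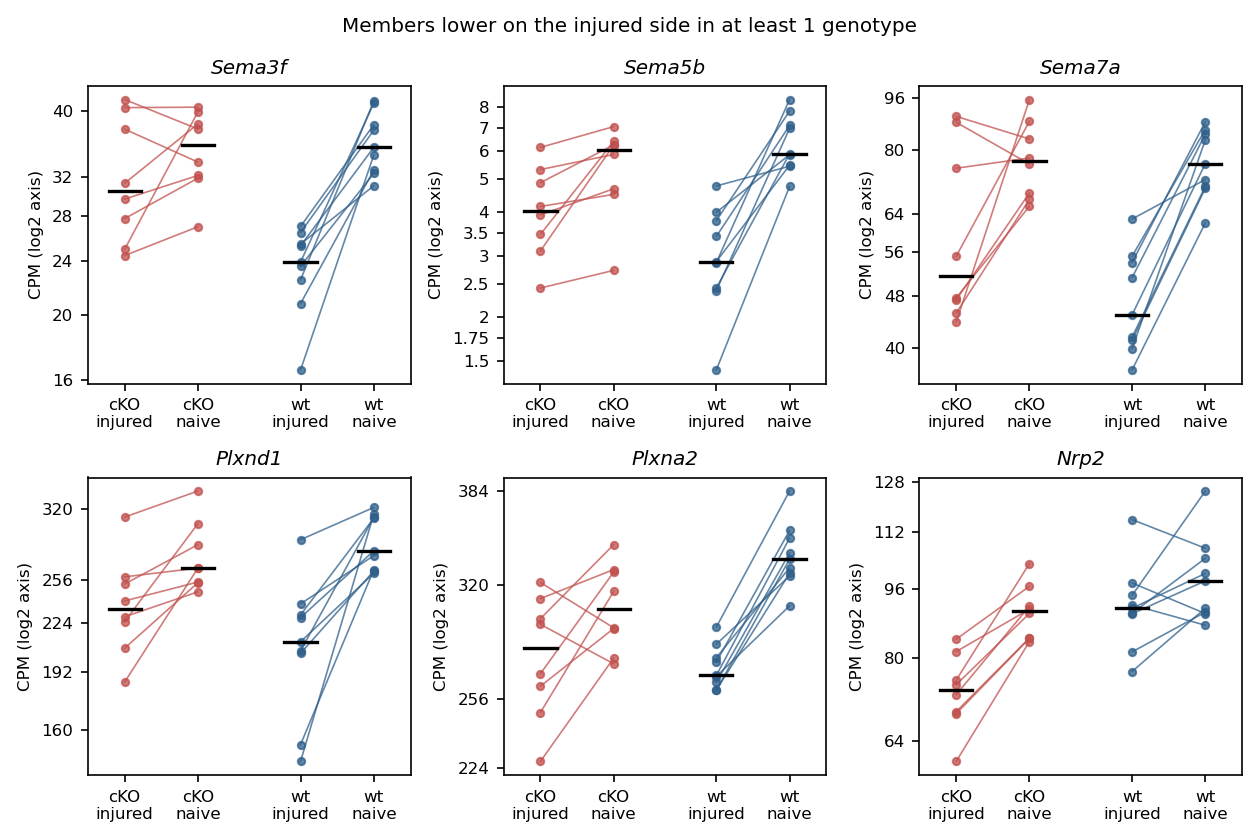
CPM on log2 axes of Sema3f, Sema5b, Sema7a, Plxnd1, Plxna2 and Nrp2 in the 34 libraries, drawn as 1 line per mouse from the injured to the naive library (cKO red, wt blue, black bars are group medians). The wt injured points of Sema3f and Plxna2 all lie under the wt naive points. For Nrp2 all 8 cKO lines slope up towards the naive side.

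With the mouse as a block 4 further members passed in wt mice besides Plxnc1 and Nrp1. Plxnb1, the Sema4d receptor, was counted at 11.9, 17.2 and 24.9 CPM in cKO injured, 7.71, 13.4 and 29.5 CPM in cKO naive, 10.9, 18.6 and 26.8 CPM in wt injured and 7.14, 14.9 and 21.0 CPM in wt naive libraries, a blocked change of 0.45 (SE 0.14, adjusted p = 0.0134). Sema3d was lower by a blocked change of -0.27 (SE 0.09, adjusted p = 0.0261), Sema3e by one of -0.33 (SE 0.11, adjusted p = 0.0253) and Sema4b by one of -0.18 (SE 0.05, adjusted p = 0.00657). Sema3d was counted at 6.37, 9.74 and 13.6 CPM in cKO injured, 8.60, 11.9 and 13.2 CPM in cKO naive, 7.80, 10.7 and 13.0 CPM in wt injured and 10.2, 12.5 and 15.3 CPM in wt naive libraries. Sema3e, the plexin D1 ligand, was counted at 14.9, 17.9 and 24.2 CPM in cKO injured, 16.5, 20.3 and 24.8 CPM in cKO naive, 5.94, 15.8 and 19.7 CPM in wt injured and 14.7, 19.3 and 22.1 CPM in wt naive libraries. Sema4b was counted at 55.9, 66.1 and 83.3 CPM in cKO injured, 69.5, 75.8 and 91.0 CPM in cKO naive, 58.6, 68.1 and 91.1 CPM in wt injured and 72.2, 78.5 and 87.3 CPM in wt naive libraries. The groups of each of these genes overlapped, and Sema4b was lower on the injured side in 8 of 8 cKO and 8 of 9 wt mice, with a blocked change of -0.20 (SE 0.05, adjusted p = 0.0181) in cKO mice. The other 11 members, Sema3a, Sema3b, Sema3g, Sema4c, Sema5a, Sema6b, Sema6c, Plxna1, Plxna3, Plxnb2 and Plxnb3, passed in no comparison without or with the block.

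**Figure D5:**
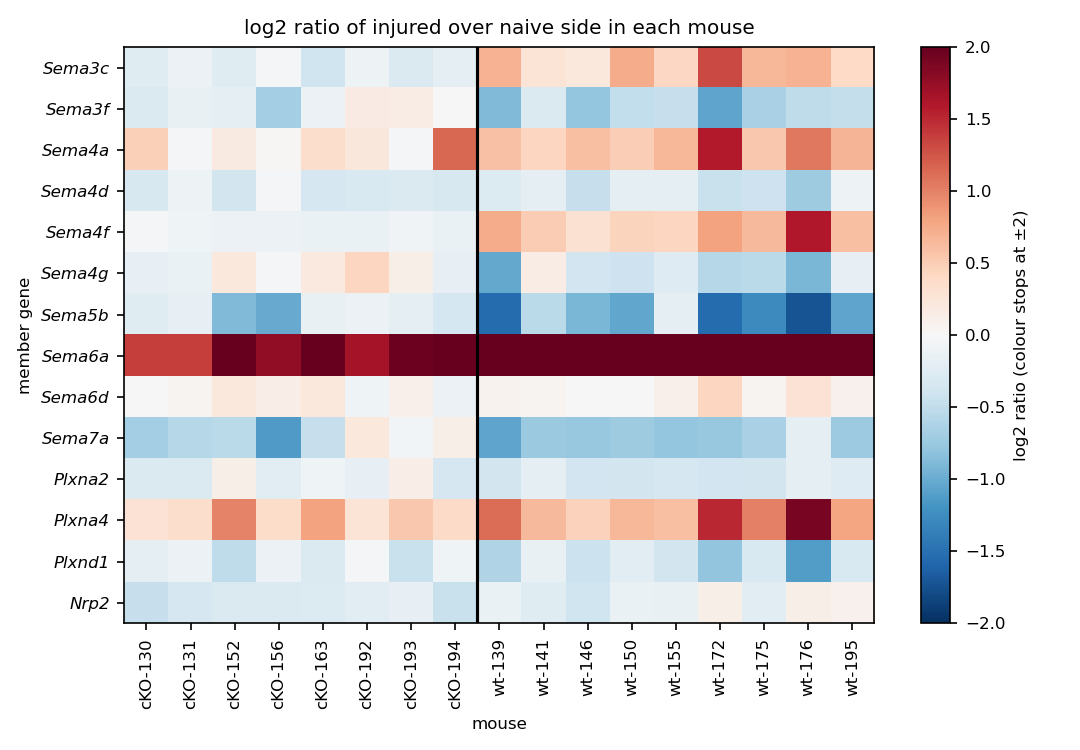
log2 ratio of the injured over the naive side in each mouse (cKO left, wt right of the black line) for the 14 members that passed in at least 1 comparison. Red is higher and blue lower on the injured side, and colours stop at 2 on the log2 scale, which all wt ratios of Sema6a exceed. Sema3c and Sema4f are red in all wt and blue or near white in all cKO mice.

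The wt response was uneven between animals. Among the 13 members that passed in wt mice, mouse wt-176 had the largest ratio in the called direction for 6 and wt-172 for 4, while wt-141 had the smallest for 6 and wt-146 for 4. For Sema6a the wt ratios ran from 2.52 in wt-141 to 4.73 in wt-176. Whole-gene Atf3 had its lowest log2 ratio, 0.39, in wt-146 and its highest, 2.77, in wt-172.

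The injured sides of the genotypes were compared to see which members differed between cKO and wt mice after injury. Of the 9 controls 6 were also labelled Cre-negative, unlike every cKO mouse. Of the 31 members 2 were higher in cKO injured than in wt injured libraries, Sema3f and Sema4g, beside 3.57% of all genes, and 5 were lower, Sema6a, Sema4f, Sema3c, Plxna4 and Nrp2, beside 7.55% of all genes. These libraries are those of the injury effects above, so the comparisons share samples. On the naive side 0 members were higher and 0 lower in cKO than in wt libraries, where edgeR called 0% of all genes higher and 0% lower. At an unadjusted p under 0.05 there was 1 member, Plxna2 (-0.15, SE 0.06, adjusted p = 0.9999). The share of all genes under that unadjusted p is not given here. DESeq2 called 0 members, beside 0 of all 19565 genes higher and 1 lower. The naive log2 differences of cKO from wt were -0.10 (SE 0.22) for Sema6a, -0.09 (SE 0.11) for Sema4f, 0.08 (SE 0.13) for Sema3c and -0.12 (SE 0.14) for Plxna4.

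The injury effects differed between genotypes for 3 members, Sema6a, Sema3c and Sema4f, all lower in cKO, beside 2.15% of all genes lower, and for 0 members in the higher direction, beside 0.695% of all genes. At an unadjusted p under 0.05 there were 8 members in all, and the share of all genes under it is not given here. DESeq2 called 1 member higher, Sema3f, beside 256 of all 19565 genes. With the mouse as a block Sema3f, Sema4g and Sema5b were higher and the same 3 genes lower, beside 3.25% of all genes higher and 4.29% lower. Within females, males, and the mice with a low or a high share of ribosomal spacer counts, the sign of all 3 lower genes was kept and none passed, with adjusted p from 0.059 to 0.826. On the injured side the log2 differences of cKO from wt for Sema4f, Sema6a and Sema3c were below 0 in each of these 4 sets of mice. They ran from -1.84 to -1.57 for Sema6a and from -0.97 to -0.60 for Sema3c. Sema4f passed in all 4 sets, and Sema6a and Sema3c in 3 of them. In males, 3 cKO and 3 wt mice all labelled Cre-positive, Sema6a and Sema3c did not pass (adjusted p = 0.0612 and 0.138).

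Genes that work beside the receptors were read from the same fit. Of 14 co-receptors and partners 3 were higher (Chl1, Itgb1 and Met) and 2 lower (Mst1r and Ptk7) on the wt injured side. Over all genes 14.3% were higher and 12.7% lower there. In cKO mice 0 passed, beside 2.61% of all genes higher and 0.583% lower. On the injured side 3 were lower in cKO than in wt (Chl1, Cntn2 and Itgb1), beside 7.55% of all genes. Chl1, an L1-family adhesion molecule that can join neuropilin-1, was counted at 102, 125 and 158 CPM in cKO injured, 81.9, 101 and 109 CPM in cKO naive, 179, 275 and 534 CPM in wt injured and 89.9, 97.8 and 130.8 CPM in wt naive libraries. Its wt injured libraries lay above all others, and the injury effects differed by -1.24 (SE 0.22, adjusted p = 0.00116). Itgb1, the beta-1 integrin that Sema7a binds, rose by 0.85 (SE 0.13, adjusted p = 6.77e-06) in wt mice, while Sema7a fell. L1cam, which joins neuropilin-1 in Sema3a signalling, had injury effects of -0.01 (SE 0.05, adjusted p = 0.97) in cKO and -0.04 (SE 0.04, adjusted p = 0.574) in wt mice.

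Of 30 intracellular transducers 11 were higher and 3 lower on the wt injured side, beside 14.3% and 12.7% of all genes. In cKO mice 1 was higher, beside 2.61% of all genes. On the injured side 1 was higher and 7 lower in cKO than in wt, beside 3.57% and 7.55% of all genes. With the block cKO mice had 2 higher, Tiam1 and Pak1 (adjusted p = 0.0427 for Pak1), and 1 lower, Limk1 (adjusted p = 0.0083). Over all genes these shares were 4.77% and 3.62%. The block gave 15 higher and 3 lower in wt mice, beside 20.8% and 20.1% of all genes. For the difference it gave 1 higher (Tiam1) and 4 lower (Rac1, Rock2, Crmp1 and Dpysl5), beside 3.25% and 4.29% of all genes. Crmp1, a collapsin response mediator protein that relays Sema3a signals, was counted at 140, 149 and 156.4 CPM in cKO injured, 126, 138 and 150 CPM in cKO naive, 186, 199 and 342 CPM in wt injured and 122, 145 and 164 CPM in wt naive libraries. Its injury effects differed by -0.58 (SE 0.13, adjusted p = 0.00632), with no wt injured library as low as a cKO injured one. Other transducers that passed were Limk2 and Farp1, higher on the wt injured side by 0.39 and 0.44 on the log2 scale, Limk1, which changed there by -0.29, and the Crmp1 relatives Dpysl5 and Dpysl3, which differed by -0.42 and -0.20 between cKO and wt on the injured side. Tiam1, a Rac exchange factor, went the other way, with 0.32 (SE 0.09, adjusted p = 0.0311) in cKO, -0.13 (SE 0.08, adjusted p = 0.254) in wt mice and a difference of 0.45 (SE 0.12, adjusted p = 0.0291). Dpysl2, a relative of Crmp1, had injury effects of -0.11 (SE 0.05, adjusted p = 0.306) in cKO and -0.06 (SE 0.04, adjusted p = 0.335) in wt mice. Of 4 VEGF ligands that also bind neuropilins, Vegfb, Vegfa and Pgf were lower on the wt injured side, beside 12.7% of all genes. Their changes were -0.46, -0.37 and -0.43 on the log2 scale. In cKO mice 0 of the 4 passed, beside 2.61% of all genes higher and 0.583% lower. Vegfa was higher on the injured side of cKO than of wt by 0.40 (SE 0.11, adjusted p = 0.0103), beside 3.57% of all genes higher. With the block Vegfb was lower in cKO mice (-0.28, SE 0.06, adjusted p = 0.00771), and the injury effects on Vegfa differed by 0.44 (SE 0.09, adjusted p = 0.00732).

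The promoters of the members were searched on both strands for patterns of sites that bZIP proteins, the family of ATF3, bind. These were TGACGTCA, the cAMP response element, and TGANTCA, a loose form of the AP-1 site in which N is any base. No promoter of a member held both. RefSeq start sites (GRCm38.p6) were listed for 26 of the 31 members, with 37 promoters. In the 250 bases before the start, TGACGTCA was in 0 of the 37 and in 1.55% of all 32851 promoters. TGANTCA, with any base at N, was in 3, of Sema4c, Sema4d and Sema6b, and in 6.75% of all promoters. The matches read TGACTCA in Sema4c, TGAATCA in Sema4d and TGAGTCA in Sema6b. Of the 3 members whose injury effect was lower in cKO, Sema4f and Sema3c had neither within that window, which says only that these letters are not there, and Sema6a was not searched. The window of Sema4f is shown because its injury effect differed between genotypes, and beside it, as a window with a match, the stretch outside exons of 1 of the 3 Sema4d windows, where capitals mark TGANTCA, starting 239 bases before the start.
Sema4f, chr6:82939770-82940019, minus strand: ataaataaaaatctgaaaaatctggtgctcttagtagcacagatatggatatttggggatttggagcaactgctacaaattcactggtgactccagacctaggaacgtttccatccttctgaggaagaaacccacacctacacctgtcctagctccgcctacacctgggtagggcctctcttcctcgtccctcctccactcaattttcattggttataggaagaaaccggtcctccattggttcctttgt
Sema4d, chr13:51748920-51749060, minus strand: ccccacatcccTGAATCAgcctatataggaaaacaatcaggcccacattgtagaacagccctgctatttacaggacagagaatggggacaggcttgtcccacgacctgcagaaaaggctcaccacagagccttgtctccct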

How the data were processed

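The authors deposited raw counts per gene, unnormalized, for 34 libraries of neuron-enriched (20% Percoll) lumbar ganglion cells, sequenced in pairs after stranded total RNA library preparation, per the labels' protocols. The submitters' processing notes name bcl2fastq 2.20, STAR, HTSeq and the build GRCm38. Other versions, HTSeq's strand setting and the annotation release: not given in the sources used here. Exons of Plxna1, Sema4c, Plxnb1 and Plxna4 overlap a gene on the opposite strand over 10.7%, 7.30%, 2.70% and 0.80% of their length, so their counts are uncertain to that extent. Symbols were matched for 48349 of 48795 gene IDs, the other 446 holding 0.0428% of counts, and 0 columns belonged to no sample.

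The test was edgeR's robust quasi-likelihood F-test (edgeR 4.0.16, R 4.3.3) after TMM scaling and a filterByExpr filter. A single model held the 4 groups and sex over all 34 libraries, with Benjamini-Hochberg adjustment over 19565 genes and a threshold of 0.05. It had no term for the mouse, so it did not pair the sides of an animal. The SE is the size of the log2 fold change over the square root of F. CPM use TMM-scaled library sizes, per kb of exon from GENCODE for GRCm38, and ratios per mouse add a prior count of 2. Both sides of a mouse are paired by the animal: deviations from group means correlated within a mouse with a median r of 0.501 over 17 pairs (0.00976 to 0.761, 16 over 0.1). Alternatives were the mouse as a replicate block, median-ratio size factors, DESeq2 1.42.0, no filter on low counts, each sex, the share of ribosomal RNA spacer counts (Gm42418, AY036118 and Gm26917) as a covariate or split into low (6 mice) and high (11 mice), and leaving out each mouse in turn, of which 15 were added after the data were seen. The code was tested on simulated data for the wt injury effect. Of 99 genes changed by 0.5 on the log2 scale 61 were recovered, and of 97 changed by 1, 75 were. There were 7 false calls among 19379 genes tested. Full values are given for members that passed in any comparison with or without the block, and up to 4 genes per pathway list and comparison by p, with L1cam, Dpysl2 and Crmp1. The members, gene lists and tests were chosen with earlier results of these data known.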

Additional observations from a re-analysis of the deposited data

Results flagged for a closer look

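The injury effect differed between genotypes for Sema6a, Sema4f and Sema3c, by -1.64, -0.82 and -0.82 on the log2 scale (cKO minus wt). In 8 of 124 groups of libraries, 1 library stood far from the others in the level of a member, where chance gives about 1 in 20. They were mouse cKO-131 for Plxna3 (37.2 CPM, injured), Plxnb1 (29.5 CPM, naive) and Sema4d (110 CPM, injured), mouse cKO-194 for Sema3a (0.84 CPM, naive), mouse wt-176 on the injured side for Sema4f (438 CPM), Sema6b (17.4 CPM) and Sema6c (35.0 CPM), and mouse wt-175 for Nrp1 (70.8 CPM, injured). Mouse cKO-131 is the one whose Avil level was the lowest, and injured wt-176 the library with the fewest counts.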

How the results depend on the processing

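No call changed sign under any alternative. Counts of members that moved by over 1.5 times are given as higher and lower. With the mouse as a replicate block the wt injury effect had 12 lower, the cKO injury effect 4 lower and the difference 3 higher, beside 20.1%, 3.62% and 3.25% of all genes. In males the wt effect had 3 higher and 0 lower, beside 592 and 222 of all 19290 genes tested there. The cKO effect had 1 and 0, beside 99 and 0 genes. The injured sides had 0 and 1, beside 31 and 71 genes, and the difference 0 lower, beside 0 genes. In females the cKO effect had 1 and 0, beside 125 and 1 of all 19842 genes tested there. The injured sides had 0 higher, beside 122 genes, and the difference 0 lower, beside 65 genes. Among mice with a low ribosomal spacer share the cKO effect had 1 higher and 1 lower (Sema7a, -0.74, adjusted p = 0.0383, in place of Nrp2, -0.29, adjusted p = 0.0961). These stood beside 288 and 96 of all 19754 genes tested there. The injured sides had 1 higher, beside 653 genes, and the difference 0 lower, beside 0 genes. Among those with a high share the cKO effect had 1 and 0, beside 129 and 4 of all 19719 genes, and the difference 0 lower. With the share as a covariate the injured sides had 4 higher and the difference 2 higher, beside 1038 and 285 of all 19565 genes. In DESeq2 the difference had 1 higher, beside 256 genes. The sets hold fewer mice, and otherwise the cause was not tested. With each mouse left out in turn, the wt effect had 5 to 7 higher and 7 to 10 lower, the cKO effect 1 to 2 higher and 1 lower, the injured sides 2 to 3 higher and 5 to 6 lower, the difference 0 to 2 higher (2 without wt-141, 1 without cKO-156) and 3 lower, and the naive sides 0 and 0. The count of wt falls was 10 without cKO-130 or cKO-152, and that of cKO rises 1 without any single cKO mouse other than cKO-131. Shares of all genes with a mouse left out are not given here. The block changed no call of a member other than those given beside the genes. The motif counts were the same over 300 bases, beside 1.79% and 7.81% of all promoters. Low members such as Sema3a, with 159 to 257 counts per group, have wide errors.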
